A study of Homo sapiens with 10 samples.

Results

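The genes described are 6 of the EGF family ligand genes, AREG, EREG, HBEGF, TGFA, BTC and NRG1, chosen by name from the 61533 genes counted in each library. RNA-seq covered 5 libraries of the bladder cancer cell line T24, of human origin, and 5 of T24R2, which was derived from T24 by repeated rounds of cisplatin, all taken on day 3 of culture. The sample labels list the same medium for both lines, whereas the methods of the study keep T24R2 in medium with cisplatin, so the derived line and exposure to the drug cannot be told apart. Each line stands for 1 derivation, and nothing in the labels says that the 5 replicates came from separate cultures, so the p-values measure only the spread between these libraries. Every one of the 6 genes passed the low-count filter, AREG only through its counts in T24 and BTC only through its counts in T24R2.

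EGF family ligands are made as membrane-anchored precursors, and proteases of the ADAM family cut them at the cell surface to release the growth factor. The released factor carries a fold with cysteines paired in disulfide bonds, the EGF-like domain, which binds receptors of the ERBB family and brings them together in pairs. Amphiregulin (AREG) and transforming growth factor alpha (TGFA) bind EGFR, whereas heparin-binding EGF-like growth factor (HBEGF), epiregulin (EREG) and betacellulin (BTC) bind both EGFR and ERBB4. Neuregulin 1 (NRG1) binds ERBB3 and ERBB4. The receptors signal through adaptors to RAS and the MAPK cascade, and in the urothelium EGFR ligands are known for driving growth and repair of the epithelium.

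The cysteine pattern that defines the family was located in the coding sequence of AREG, TGFA, HBEGF, EREG and BTC (MANE Select transcripts of the GENCODE annotation on hg38). In each of the 5 genes it took 36 codons, 108 bases, spread over 2 exons, with 6 cysteine codons separated by 7, 4, 10, 1 and 8 other codons. The stretches are shown 5′ to 3′ on the coding strand because this is the region that the ligands share. Cysteine codons are in capitals:
AREG: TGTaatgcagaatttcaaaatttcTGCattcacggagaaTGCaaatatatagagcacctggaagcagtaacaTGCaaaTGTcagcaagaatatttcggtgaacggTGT
TGFA: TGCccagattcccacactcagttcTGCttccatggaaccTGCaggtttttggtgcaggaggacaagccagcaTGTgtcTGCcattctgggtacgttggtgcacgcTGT
HBEGF: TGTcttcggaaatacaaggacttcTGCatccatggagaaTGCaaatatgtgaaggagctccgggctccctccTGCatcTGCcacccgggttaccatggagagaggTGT
EREG: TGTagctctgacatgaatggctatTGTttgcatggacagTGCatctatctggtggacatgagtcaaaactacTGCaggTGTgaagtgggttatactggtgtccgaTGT
BTC: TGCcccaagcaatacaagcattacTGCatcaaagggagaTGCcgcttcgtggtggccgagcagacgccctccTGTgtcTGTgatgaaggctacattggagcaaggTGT
The AREG stretch lies at chr4:74449172-74450410 and the EREG stretch at chr4:74381061-74382675, both on the plus strand, and the other 3 are read from the minus strand. These are the intervals chr2:70456458-70465692 for TGFA, chr5:140335997-140342711 for HBEGF and chr4:74750689-74755935 for BTC, each with 1 intron inside it. Between 46.3% (EREG and TGFA) and 63.0% (TGFA and BTC) of the 108 bases were identical in the 10 pairs. No annotated gene on the opposite strand overlapped an exon of any of the 6 ligand genes. NRG1 shared 189 exon bases (0.883%) with a gene on its own strand that had 0 counts.

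Between T24 and T24R2 the mRNAs of AREG, HBEGF, NRG1, EREG and TGFA were lower in T24R2 and that of BTC was higher. AREG, an EGFR ligand that also acts on keratinocytes, fell most, from 28.6 ± 3.28 to 0.530 ± 0.228 CPM (counts scaled to library size with TMM factors, mean ± SD, n = 5), a 54.0-fold difference. HBEGF fell 7.83-fold, NRG1 5.03-fold, EREG 2.75-fold and TGFA 2.53-fold, whereas BTC rose 3.77-fold from a low level. Genes were called at an absolute log2 fold change over 0.5 and an adjusted p under 0.05 (edgeR quasi-likelihood fit, Benjamini-Hochberg over 16181 genes). By this rule 5 of the 6 ligands were lower and 1 was higher. Of all genes tested 26.5% were lower and 24.9% higher, 51.4% in either direction, so calls were common across the transcriptome. The median log2 fold change of the 6 ligands was -1.89, beside 0.01 for all genes tested. The ligands were chosen with earlier results of these data known, so these medians only describe and test nothing. All values are shares of a library. Because each bulk library pools many cells, fewer cells with an mRNA and less of it per cell cannot be told apart.

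**Figure D1:**
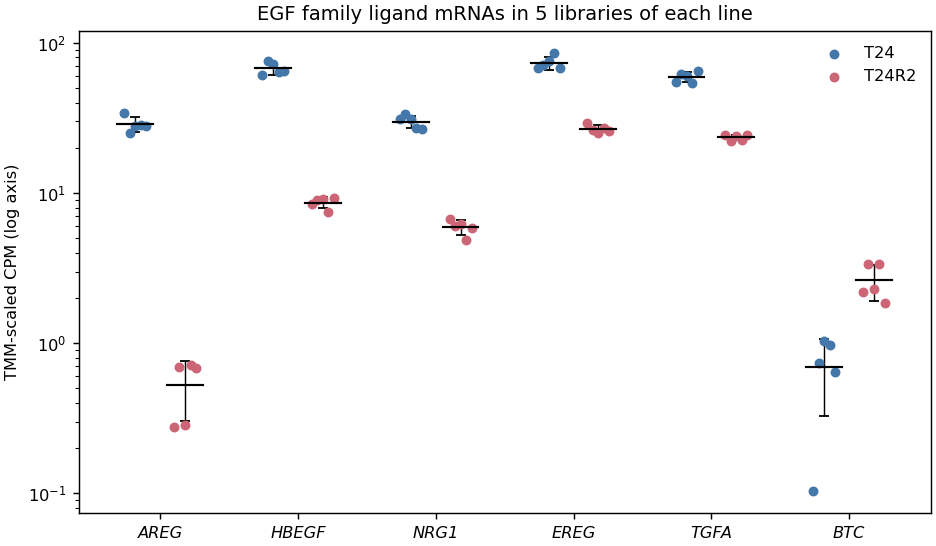
TMM-scaled CPM on a log axis of the 6 EGF family ligand mRNAs in each of 5 libraries of T24 (blue) and of T24R2 (red), with the mean as a line and the SD as bars. The points of the lines do not overlap for any of the 6 genes, and the T24R2 points of AREG lie between 0.274 and 0.711 CPM.

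AREG (ENSG00000109321.11) lies on chromosome 4 from 74445136 to 74455005 on the plus strand. Its counts in T24 replicates 1 to 5 were 328, 238, 244, 266 and 258, and in T24R2 they were 3, 8, 3, 8 and 7. Scaled to library size, the T24 libraries held 34.0, 25.0, 27.8, 28.5 and 27.8 CPM and the T24R2 libraries 0.274, 0.691, 0.287, 0.711 and 0.686 CPM. Every T24 library was far above every T24R2 library, and the T24R2 libraries held 3 to 8 counts, near the 3 counts taken as the floor. On the log2 scale the change was -5.71 (SE 0.18, edgeR adjusted p = 3.4e-27).

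TGFA (ENSG00000163235.16), a ligand long studied in carcinoma cells that bind their own growth factors, lies on chromosome 2 from 70447284 to 70554193 on the minus strand. It was counted 529, 591, 531, 505 and 604 times in T24 and 264, 258, 252, 254 and 248 times in T24R2. In CPM this was 54.8, 62.0, 60.5, 54.2 and 65.1 against 24.1, 22.3, 24.1, 22.6 and 24.3. The T24R2 libraries lay close together, at 23.5 ± 0.973 CPM, and all below the lowest T24 library. Its log2 fold change was -1.34 (SE 0.07, edgeR adjusted p = 9.3e-20).

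HBEGF (ENSG00000113070.8), whose precursor is also the diphtheria toxin receptor, lies on chromosome 5 from 140332843 to 140346603 on the minus strand. Its counts were 587, 724, 632, 598 and 603 in T24 and 92, 104, 95, 84 and 94 in T24R2. The CPM values were 60.8, 76.0, 72.0, 64.1 and 65.0 in T24, and 8.42, 8.99, 9.09, 7.46 and 9.21 in T24R2. No T24R2 library came near a T24 library. The fitted log2 fold change was -2.97 (SE 0.09, edgeR adjusted p = 1.1e-28), which corresponded to 12.8% of the T24 level.

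EREG (ENSG00000124882.4) lies on chromosome 4 from 74365145 to 74388749 on the plus strand, 56.4 kb before AREG. T24 libraries held 652, 676, 665, 796 and 628 counts and T24R2 libraries 319, 306, 262, 304 and 264. The CPM values were 67.5, 70.9, 75.8, 85.4 and 67.7 in T24 and 29.2, 26.4, 25.1, 27.0 and 25.9 in T24R2. The lines were again separate, with T24 replicate 4 the highest and no T24R2 library above 29.2 CPM. Its log2 fold change was -1.46 (SE 0.07, edgeR adjusted p = 3.9e-21).

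BTC (ENSG00000174808.12), first described from an insulinoma cell line, lies on chromosome 4 from 74744759 to 74794523 on the minus strand, 289.8 kb beyond AREG. It was the ligand that rose, from 1, 7, 9, 9 and 6 counts in T24 to 24, 39, 24, 38 and 19 in T24R2. In CPM the T24 libraries held 0.104, 0.735, 1.03, 0.965 and 0.646 and the T24R2 libraries 2.20, 3.37, 2.30, 3.38 and 1.86. All T24R2 libraries were above all T24 libraries, but the level stayed low in both lines and the spread was wide. BTC had a log2 fold change of 1.92 (SE 0.35, edgeR adjusted p = 5.8e-06).

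NRG1 (ENSG00000157168.20), the ligand of the group that binds ERBB3 and ERBB4, lies on chromosome 8 from 31639222 to 32855666 on the plus strand. Its counts were 299, 319, 273, 253 and 248 in T24 and 73, 70, 65, 55 and 60 in T24R2. This came to 31.0, 33.5, 31.1, 27.1 and 26.7 CPM in T24 and 6.68, 6.05, 6.22, 4.89 and 5.88 CPM in T24R2. The lowest T24 library was above the highest T24R2 library by a wide margin. NRG1 had a log2 fold change of -2.33 (SE 0.11, edgeR adjusted p = 1.8e-21).

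For each of the 6 ligands an exact two-sided permutation test of CPM gave p = 0.00794 (5 against 5 libraries), the smallest p that 252 splits allow. Lines whose libraries did not overlap were frequent in these data, at 61.2% of all genes tested. Chi-square statistics per degree of freedom between libraries of a line were 2.01 to 7.04, so no pair of replicates was alike within sampling noise.

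Ratios between ligands within a library do not depend on library scaling, and 15 such ratios were compared between the lines. In 14 of the 15 pairs the 5 log2 ratios of one line did not overlap those of the other (exact permutation p = 0.00794, adjusted p = 0.00850 over the 15 pairs). Pairs with AREG or BTC hold a gene that passed the count filter only through the line where it is high. The ratios were chosen after values were seen, and no share over other gene pairs was taken, so this count only describes. The exception was EREG over TGFA, with a log2 ratio of 0.31 ± 0.22 in T24 and 0.18 ± 0.10 in T24R2. Its difference of -0.12 (SE 0.11) was within the spread between libraries (exact permutation p = 0.341). The log2 ratio of AREG to EREG, its neighbour on chromosome 4, fell by 4.42 (SE 0.35), and that of AREG to HBEGF fell by 2.91 (SE 0.36). The log2 ratio of HBEGF to NRG1 fell by 0.64 (SE 0.08), and that of EREG to NRG1 rose by 0.88 (SE 0.13). The falls thus ran in the order AREG, HBEGF, NRG1, and then EREG and TGFA, which were not separated.

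Levels of different genes were compared as CPM per kilobase of exons, using the exon length in the count tables. In T24 HBEGF stood highest at 22.6, ahead of AREG at 17.4, EREG at 12.9 and TGFA at 12.1 CPM per kilobase. NRG1 at 1.40 and BTC at 0.262 CPM per kilobase were far below these 4. The ranges of HBEGF (20.3 to 25.4) and AREG (15.2 to 20.7) overlapped slightly, as did those of EREG and TGFA (11.8 to 14.9 and 11.0 to 13.2).

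In T24R2 the order was different. TGFA at 4.78 and EREG at 4.68 CPM per kilobase came first with overlapping ranges, followed by HBEGF at 2.89 and BTC at 0.988. AREG at 0.323 and NRG1 at 0.278 CPM per kilobase came last, and their ranges overlapped (0.167 to 0.433 and 0.228 to 0.312). The NRG1 value depended on the length used, since the union of its exons is 21398 bases whereas its MANE Select transcript is 11983 bases. With that transcript, NRG1 was at 0.496 CPM per kilobase in T24R2 and AREG at 0.429.

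**Figure D2:**
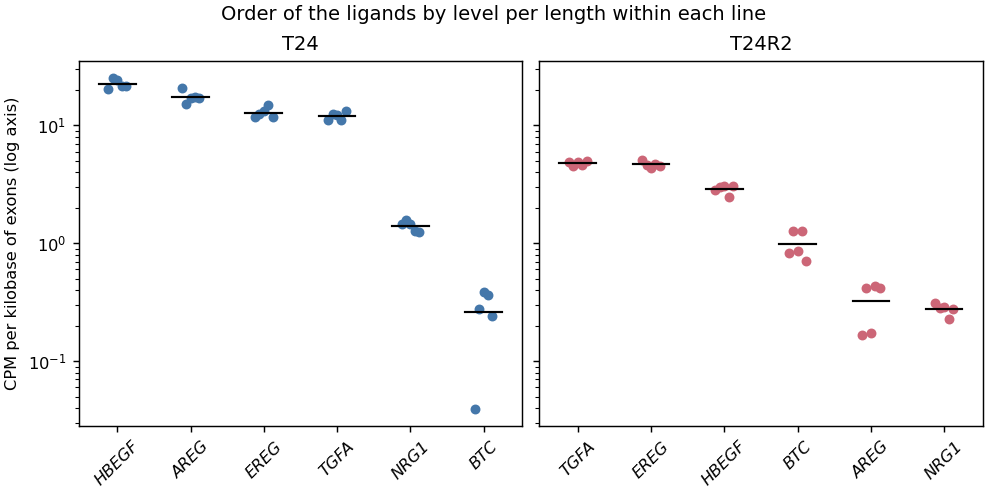
CPM per kilobase of exons on a log axis for the 6 ligands, ordered by their mean within T24 (left) and within T24R2 (right), with 1 point for each of 5 libraries and the mean as a line. HBEGF and AREG lead in T24, whereas TGFA and EREG lead in T24R2 and AREG lies among the lowest.

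Summed per length, the 6 ligand mRNAs came to 66.6 ± 1.37 CPM per kilobase in T24 and 13.9 ± 0.220 in T24R2. HBEGF made up 33.9% ± 2.59 of this sum in T24 and AREG 26.2% ± 3.35, and in T24R2 they made up 20.7% ± 1.71 and 2.32% ± 0.994. The shares of TGFA (18.1% ± 1.47 to 34.3% ± 1.57) and EREG (19.3% ± 1.87 to 33.6% ± 1.67) were larger in T24R2, although both mRNAs fell. BTC went from 0.391% ± 0.203 to 7.09% ± 1.91, and NRG1 was close to 2% in both lines (2.10% ± 0.181 and 1.99% ± 0.209).

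Of the other 5 ligand genes of the family, NRG2, EGF and NRG4 were tested. EGF, the founding ligand, was counted 1, 1, 1, 2 and 3 times in T24 and 39, 24, 20, 28 and 27 times in T24R2, a ratio of 14.8 (95% interval 7.29 to 34.9, counting error only), and was called higher (edgeR adjusted p = 2.5e-10). EGF passed the filter only through T24R2. NRG2, a neuregulin like NRG1, fell from 20.2 ± 1.92 to 6.59 ± 0.842 CPM (log2 fold change -1.61, SE 0.12, edgeR adjusted p = 2.5e-15).

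NRG4, a neuregulin that binds ERBB4, was called higher, at 1.06 ± 0.494 CPM in T24 and 3.01 ± 0.430 in T24R2 (2.84-fold, edgeR adjusted p = 2.9e-05). FBXO22 covers 38.2% of the NRG4 exon bases on the opposite strand, with a mean count of 604 per library beside 21.3 for NRG4, so the NRG4 counts are uncertain. EPGN, an EGFR ligand located beside EREG, was not tested, with at most 2 counts in a T24 library and at most 5 in a T24R2 library. NRG3, a neuregulin of the nervous system, had at most 3 counts in a T24 library and 0 in all 5 T24R2 libraries, which allows up to 0.276 CPM. Thus NRG1 and NRG2 were both lower in T24R2, and the ligands that were higher (BTC, EGF and NRG4) held at most 3.57 CPM in a library.

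Among the receptors, ERBB3 was lower in T24R2 and EGFR and ERBB2 were not called. EGFR, which binds most of these ligands, was at 173.8, 180.2, 186.9, 198.6 and 198.8 CPM in T24 and 220.4, 246.7, 226.5, 227.5 and 215.0 in T24R2. The lines did not overlap, but the log2 fold change of 0.28 (SE 0.05, edgeR adjusted p = 2.3e-06) was under the minimum of 0.5, so EGFR was not called. ERBB2, the partner receptor without a ligand of its own, was at 122 ± 3.77 and 134 ± 11.5 CPM with overlapping libraries (log2 fold change 0.14, SE 0.05, edgeR adjusted p = 0.0187) and was not called.

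ERBB3, the neuregulin receptor with little kinase activity, fell from 10.2 ± 0.317 to 1.82 ± 0.489 CPM (log2 fold change -2.48, SE 0.19, edgeR adjusted p = 3.4e-15). ERBB4, the other neuregulin receptor, was not tested, with 0 to 2 counts in each T24 library and 2 to 10 in each T24R2 library.

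Of 15 genes that process the ligand precursors, 14 were tested, and 7 were lower and 0 higher in T24R2. Among all genes tested 26.5% were lower and 24.9% higher. The 7 lower genes include the inhibitor TIMP3, which passed the count filter only through T24. By edgeR, 4 of the 14 had a positive change at an unadjusted p under 0.05, none of them over the fold minimum, and DESeq2 and limma-voom likewise called 0 higher. The median log2 fold change over the 14 was -0.49. ADAM17, the main sheddase of AREG, EREG, HBEGF and TGFA, was at 82.9 ± 2.82 and 89.8 ± 1.45 CPM and was not called (log2 fold change 0.12, SE 0.05). ADAM10, the main sheddase of BTC and EGF, had a log2 fold change of 0.49 (SE 0.04) and just missed the minimum of 0.5. It passed the minimum when T24 replicate 4, T24R2 replicate 1 or T24R2 replicate 2 was left out (0.51, 0.50 and 0.50), and it was called higher under upper-quartile factors and, at 0.65, under library size alone.

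RHBDF2 (iRhom2), a rhomboid pseudoprotease that carries ADAM17 to the surface, fell from 99.6 ± 3.13 to 15.2 ± 2.19 CPM (log2 fold change -2.71, SE 0.07, edgeR adjusted p = 1.3e-29). Its relative RHBDF1 (iRhom1) fell from 91.9 ± 7.29 to 42.8 ± 3.51 CPM. The protease ADAM19 fell by 2.62 (SE 0.06), and ADAM9, ADAM15 and FRMD8, a partner of the iRhoms, were lower as well, the FRMD8 call being lost under library size alone (-0.46). TIMP3, the inhibitor of ADAM17, had 5604 to 7094 counts in T24 libraries and 0 in all 5 T24R2 libraries, at least 2427-fold lower when T24R2 is set at 3 counts per library.

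**Figure D3:**
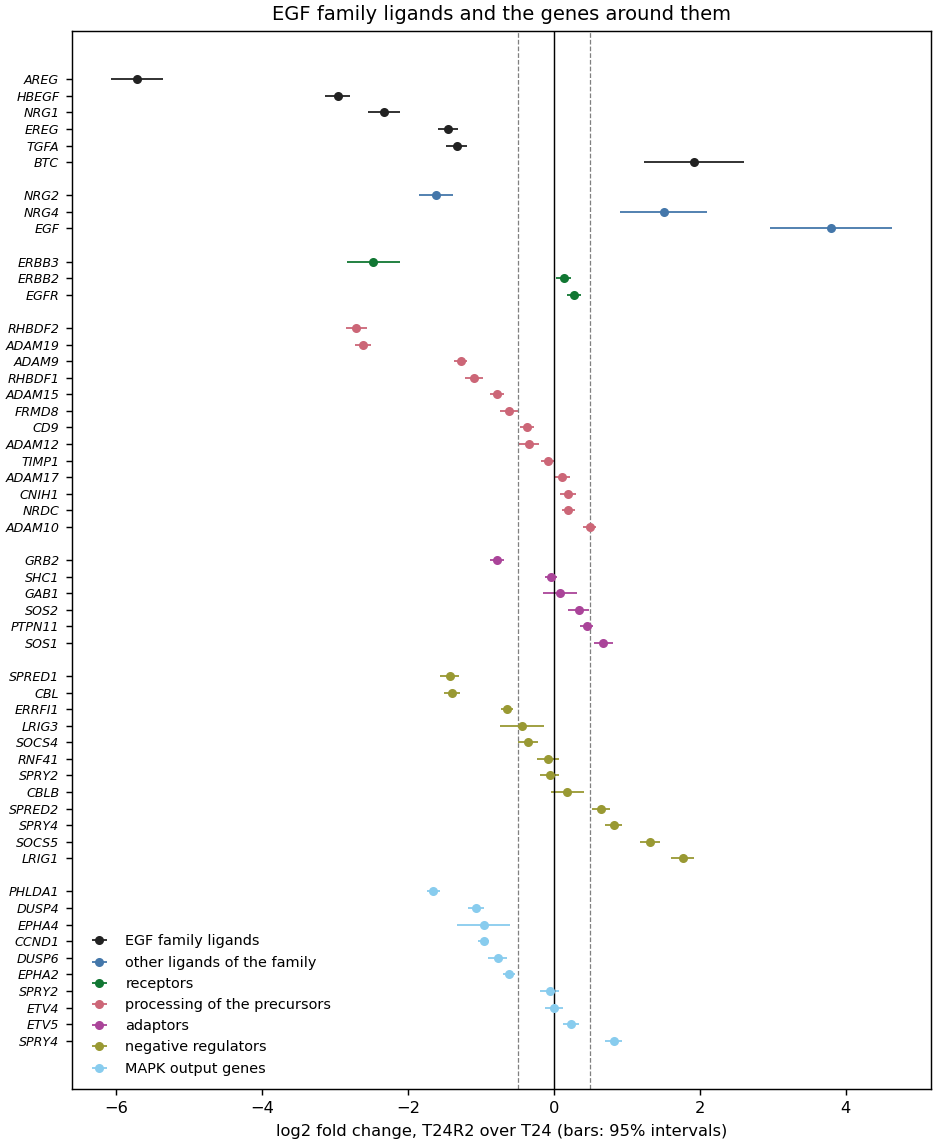
Fitted log2 fold changes (T24R2 over T24, edgeR) for tested ligands, receptors, processing genes, adaptors, negative regulators and MAPK output genes, with bars for 95% intervals and dashed lines at -0.5 and 0.5. SPRY2 and SPRY4 appear in both of the last groups, and TIMP3, with 0 counts in T24R2, is left out. The largest fall among the genes drawn is that of AREG.

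Downstream of the receptors, 1 of 6 adaptor genes was higher and 1 lower. SOS1, the exchange factor that loads RAS, rose by 0.67 on the log2 scale (SE 0.07), and GRB2, the adaptor that brings it to the receptor, was lower with a log2 fold change of -0.78 (SE 0.05). The other 4 adaptors were not called.

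Of 13 negative regulators, 12 were tested, with 4 higher and 3 lower and a median log2 fold change of -0.07. LRIG1, a membrane protein that promotes breakdown of ERBB receptors, rose from 18.6 ± 2.29 to 63.3 ± 6.36 CPM (log2 fold change 1.76, SE 0.08, edgeR adjusted p = 1.1e-21). SLC25A26 covers 37.9% of LRIG1 exon bases on the opposite strand, so this count is uncertain. SOCS5 was higher too (1.32, SE 0.07), whereas SPRED1, an inhibitor of RAS signalling (-1.43, SE 0.07), and CBL, the ubiquitin ligase of EGFR (-1.40, SE 0.05), were lower.

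Of 10 genes known to rise with MAPK output, 6 were lower and 1 was higher, with a median log2 fold change of -0.70. PHLDA1 fell from 604 ± 24.7 to 191 ± 11.1 CPM (log2 fold change -1.66, SE 0.05, edgeR adjusted p = 1.5e-29), and CCND1 (cyclin D1) from 1049 ± 17.1 to 538 ± 12.8 CPM. The phosphatase DUSP4 and the receptor EPHA2 were also lower, although the EPHA2 call was lost under library size alone (-0.46), while SPRY4 was higher (0.82, SE 0.06) and ETV4 did not pass the test (log2 fold change 0.00, SE 0.06). Genes on the opposite strand covered 28.6% of the exon bases of DUSP6, which is among the 6 lower genes, 12.3% of ADAM17, 10.4% of CCND1 and 9.35% of PHLDA1. All list counts stand beside 26.5% lower and 24.9% higher among all genes tested.

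EREG, AREG and BTC lie with EPGN within 486 kb of chromosome 4, from 74308470 to 74794523, next to a run of chemokine genes. Within 1000 kb on either side of the interval, 58 genes were annotated and 18 tested, the 3 ligands included. Of the 18, 11 were lower, 4 higher and 3 not called, beside 26.5% lower and 24.9% higher among all genes tested. Among them CXCL5, ENSG00000287037, RASSF6 and AREG passed the count filter only through T24, and BTC and PARM1 only through T24R2. The median log2 fold change of the 18 was -1.20. All 6 tested CXCL chemokine genes before EREG were lower, among them CXCL8, the neutrophil attractant (-1.92, SE 0.06), and CXCL6 (-7.50, SE 0.08), while CXCL5 had 880 to 1266 counts in T24 libraries and 0 in T24R2.

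MTHFD2L, the nearest tested gene before EREG, was higher (1.02, SE 0.11), as was PARM1, the nearest beyond BTC (6.31, SE 0.59), with at most 1 count in a T24 library and 25 to 43 in a T24R2 library. In order along the chromosome, the 8 tested genes from RASSF6 to CXCL2 were lower, the next 2 higher, EREG and AREG lower, and BTC and PARM1 higher.

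**Figure D4:**
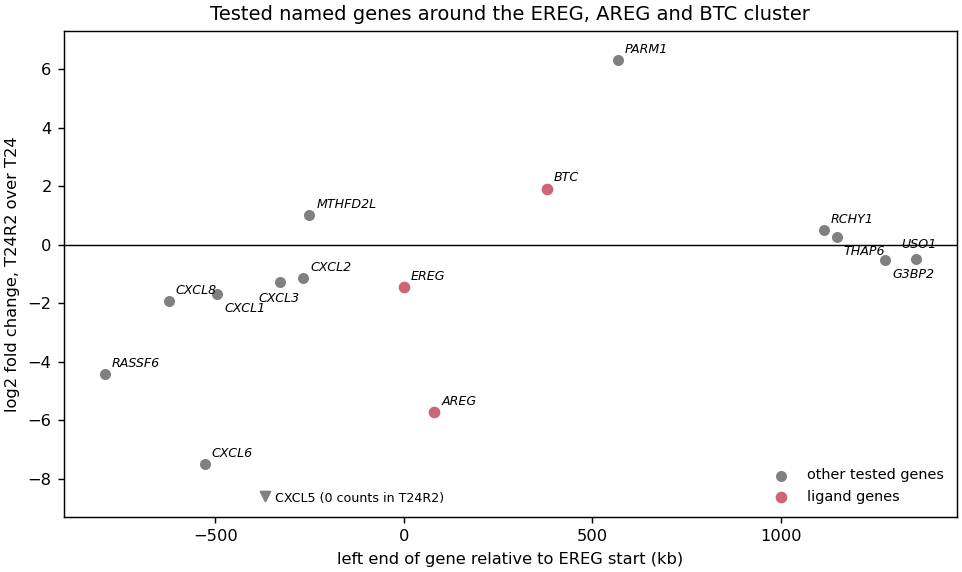
Fitted log2 fold changes (T24R2 over T24) of the tested genes with a symbol within 1000 kb of the chromosome 4 ligand cluster, against the position of the left end of each gene relative to the start of EREG in kb. CXCL5, with 0 counts in T24R2, is drawn as a triangle at the bottom edge and not at a fitted value. EREG and AREG follow a run of CXCL genes that were lower, and BTC and PARM1 lie above 0.

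HBEGF, TGFA and NRG1 each lie on a different chromosome. The nearest tested genes to HBEGF, PFDN1 (29.7 kb away, log2 fold change -0.40) and ANKHD1-DT (24.3 kb), were not called. FAM136A, 145 kb from TGFA, was higher (0.96) although TGFA was lower. On the other side of TGFA, ENSG00000258881, 385 kb away, was also higher (1.85), from 0.456 CPM in T24 to 1.66 in T24R2. The tested genes nearest to NRG1 (ENSG00000253961 and ENSG00000247134) were not called.

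The promoters of AREG and EREG are shown because these neighbours both fell, by unequal amounts. Each sequence holds the 250 bases before the annotated start, 5′ to 3′ on the plus strand (RefSeq, GRCh38.p14), at chr4:74444886-74445135 for AREG and chr4:74364895-74365144 for EREG. Capitals mark letters that match a motif searched on both strands, namely the TATA box (TATAAA), the cyclic AMP response element (CRE, TGACGTCA), the AP-1 site (TGANTCA) and the GC box (GGGCGG):
AREG: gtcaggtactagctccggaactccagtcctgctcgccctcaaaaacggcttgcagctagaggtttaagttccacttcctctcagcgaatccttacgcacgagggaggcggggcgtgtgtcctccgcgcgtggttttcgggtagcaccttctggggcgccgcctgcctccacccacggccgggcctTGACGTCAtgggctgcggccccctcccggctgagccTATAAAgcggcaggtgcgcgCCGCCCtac
EREG: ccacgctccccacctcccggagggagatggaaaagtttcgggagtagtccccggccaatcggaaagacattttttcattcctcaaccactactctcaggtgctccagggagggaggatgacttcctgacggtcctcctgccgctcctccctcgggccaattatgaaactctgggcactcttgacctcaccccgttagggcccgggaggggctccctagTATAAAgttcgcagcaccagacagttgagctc
AREG held a CRE 65 bases before its start, a TATA box at 29 bases and a GC box at 9 bases, and EREG held a TATA box at 32 bases. The CRE was present in 1.65% of 35116 promoters of this length, the TATA box in 10.7%, the AP-1 site in 6.57% and the GC box in 42.6%. The HBEGF promoter held 5 GC boxes, some of them overlapping, the first of 2 TGFA promoters held 3, and that of BTC held no match. A match describes letters only.

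By Pearson correlation of log2 CPM over the 10 libraries, the pattern most like AREG was that of MDK, the growth factor midkine (r = 0.999), followed by CLDN11. HOXB4 and ISG20 were most like EREG, TRAF7 and QPCT most like HBEGF, C5orf46 and PLAUR most like TGFA, and NPLOC4 and TK1 most like NRG1, each with r of at least 0.997. For BTC they were MAP3K2 and ABHD18 (r = 0.984 and 0.983). Because the libraries fall into the 2 lines, such values were common, and 2729 to 2921 genes exceeded r = 0.95 with each of the ligands that fell, against 25 with BTC.

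Markers of urothelium and of other cells also differed between the lines. Beside the counts that follow, 26.5% of all genes tested were lower in T24R2 and 24.9% higher. Of 12 urothelial markers 5 were tested and were lower in T24R2, with GATA3 at 175 to 241 counts in T24 libraries and 0 to 5 in T24R2 libraries, and KRT20 was at 0 in every library. The summed level of the 12 was 2338 to 2525 CPM in T24 and 1337 to 1509 in T24R2. Most of this sum was KRT7, at 2236 ± 70.3 CPM in T24 and 1366 ± 64.5 in T24R2, so it says little about the other markers. Of 11 markers of leukocytes, endothelium and fibroblasts 3 were tested (CDH5, PECAM1 and COL1A1), each lower in T24R2, with CDH5 at 238 ± 22.2 against 0.558 ± 0.309 CPM, and the summed level was 232 to 284 CPM against 2.40 to 6.22. PTPRC, the pan-leukocyte marker, had 0 to 1 counts in T24 libraries and 2 to 10 in T24R2 libraries. GATA3 and CDH5 passed the count filter only through T24, and markers low in both lines, PTPRC among them, were not tested, so these counts were partly set by the filter. The part of these markers in the ligand differences was not tested. T24R2 replicate 3 stood apart from the other T24R2 libraries, with 17 counts of CD68, 6 of KRT5, 6 of VWF and 3 of CD3E, where the others had at most 3 of CD68, 1 of VWF and 0 of KRT5 and CD3E. Without it all 6 ligands remained called in the same direction. Total counts were 9257843 to 10247941 in T24 and 9591379 to 10840954 in T24R2.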

How the data were processed

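RNA was measured by sequencing in 10 libraries, 5 of T24 and 5 of T24R2. Per the submitters' processing notes and the headers of the tables, the authors used STAR 2.7.0 for alignment to hg38. SAMtools 1.10 served to retain unique alignments and drop duplicates, and featureCounts 2.0.1 (strand option 1) assigned fragments to the genes of GENCODE release 39. The deposited values are raw counts, neither normalized nor pooled. Removal of duplicates can lower counts of abundant transcripts, and the kit is not described in the methods as marking strand.

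From these counts, all genes were fitted in R 4.3.3 with edgeR 4.0.16 (filterByExpr, TMM, glmQLFit, glmQLFTest), with Benjamini-Hochberg adjustment over 16181 genes and the thresholds of the study. DESeq2 1.42.0, apeglm 1.24.0 and limma 3.58.1 (voom) served as alternatives, as did other scalings, filters and thresholds, a replicate block and each library left out. The steps were tested on simulated counts. Exact permutation tests used SciPy 1.17.1, and plots matplotlib 3.10.9. Gene identifiers were matched to symbols for 61369 of 61533 genes. Gene levels per kilobase used the exon length of the tables. A library at 0 was set at 3 counts for a bound. Intervals and bounds cover counting error only.

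The ligands and lists were chosen with earlier results of these data known. Named genes were all ligands and receptors, up to 4 called genes with the smallest adjusted p of each other pathway list, genes at the floor in 1 line, the nearest tested genes, those within 1 Mb of the chromosome 4 ligands and the 2 most alike genes of each ligand. Other genes, such as ADAM17, ADAM10, RHBDF1 and ETV4, and the ratios between ligands were chosen after values were seen. The promoters and coding stretches of NRG1 are not shown.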

Additional observations from a re-analysis of the deposited data

Results flagged for a closer look

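The EPGN level in T24R2 replicate 1 stood apart from the other libraries of its line, at 0.457 CPM (5 counts) against 0 to 0.0980 CPM. Its gap to the nearest library was 0.786 of the range of the line, above the limit of 0.71 for 5 samples. It was the only such value among 29 sets of 5 libraries examined (ligands, other ligands and receptors in each line). Chance gives about 1 in 20, or 1.45 values over the 29 sets, so 1 value is no more than chance gives.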

How the results depend on the processing

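All 6 ligands kept their direction and their side of the threshold under each alternative that tested them (119 of 119 values), and the log2 fold change of AREG ranged from -5.84 to -5.55 and that of BTC from 1.63 to 2.09. With a mean of at least 100 counts BTC, EGF, NRG4 and ERBB3 were not tested. Under this filter 0 ligands and 0 other ligands were higher. Receptors called higher stayed at 0, 0 receptors were lower, and 1 processing gene (ADAM10) was higher. Scaling by library size alone shifted the median over all tested genes from 0.01 to 0.18 (log2) and gave 5206 higher and 3431 lower genes instead of 4027 and 4282, with 1 processing gene and 3 adaptors higher. Lower calls went from 7 to 6 among processing genes (FRMD8 lost), from 3 to 2 among negative regulators (ERRFI1) and from 6 to 5 among MAPK output genes (EPHA2). Upper-quartile factors gave 1 processing gene and 2 adaptors higher. Without a count filter 33622 genes were tested, 2 other ligands were lower and 1 receptor (ERBB4) was higher. Without a fold change minimum 6128 genes were higher and 6084 lower, among them higher 2 receptors (EGFR and ERBB2), 4 processing genes, 3 adaptors and 2 MAPK output genes, and lower 5 negative regulators. With an absolute log2 fold change over 1, 1918 genes were higher and 2293 lower, with 0 adaptors lower or higher, 2 MAPK output genes lower and 0 higher, and 2 negative regulators higher. The mean of at least 100 counts left 10686 genes, 2350 higher and 2641 lower. Leaving out 1 library at a time gave 0 to 1 processing genes higher and 3 to 5 negative regulators lower. The value of 1, with ADAM10 called, came from leaving out replicate 4 of T24 or replicate 1 or 2 of T24R2, and the value of 5, with LRIG3 among them, without T24R2 replicate 5. Causes of these shifts were not tested beyond the change of filter or threshold itself.

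By CPM without length, the T24 ranks were EREG 1, HBEGF 2, TGFA 3, NRG1 4 and AREG 5, and the T24R2 ranks EREG 1, TGFA 2, NRG1 4, BTC 5 and AREG 6. With the MANE Select length, chosen after seeing the data, the T24R2 ranks were EREG 1, TGFA 2, NRG1 5 and AREG 6.

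Samples with the same replicate number did not deviate together (correlations -0.02 to 0.02, 0 of 5 pairs over 0.1), so no pairing by number was seen. This cannot tell whether libraries of the same number were prepared together. A fit with the replicate block called 3979 genes higher and 4261 lower, and again 5 ligands lower and 1 higher. Removal of opposite-strand genes was not run for the ligands, since none overlaps their exons. Of 915 values for the other listed genes, 877 kept their call, 14 were weaker and 24 were stronger. No value called in either fit turned sign. Among genes not called, TIMP1, SHC1, RNF41 and SPRY2 turned sign under library size alone, and ETV4 with a library left out. At this depth AREG in T24R2, BTC in T24 and EGF in T24 rest on fewer than 10 counts per library.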
